A study of Zea mays with 6 samples.

Results

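The genes described here are those that were well expressed in wild-type maize coleoptile tips and stood at 0.5 or less of that level in tips labelled fdl1-Mu. They were chosen from a table of 39283 genes by 3 conditions: the status OK, which Cuffdiff gave to 23139 genes, a value of at least 5 FPKM in wild type, and a ratio of fdl1-Mu to wild type of at most 0.5. FPKM counts the fragments of a transcript scaled to its length and to the number of fragments mapped in the library. The first 2 conditions left 15034 genes that could be members, and 103 of them were members, a share of 0.685%. Since the ratio itself chose them, the drop of these genes is a description, and nothing is read from that share.

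FDL1 is a MYB transcription factor, and fdl1-Mu is an allele with a transposon inserted in an exon of the gene. The coleoptile is a hollow cover over the shoot tip of a germinating grass. Tips labelled fdl1-Mu and wild-type tips came with 3 replicates per group, each a pool of 5 tips, and both groups were of the W22 background and grown at 28°C to 3 days after germination. Per the labels, the fdl1 samples included tips that looked normal. The methods name homozygous and heterozygous fdl1-Mu plants as the source of the tips as a whole. They do not say which plants made up which group, so the group called wild type may hold heterozygous plants. The table holds 1 pooled value per gene and group, so no spread between replicates stands beside any value, no test was made, and the number of reads behind a value is unknown.

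FDL1 itself (GRMZM2G056407) had 12.7 FPKM in the tips labelled fdl1-Mu and 4.58 FPKM in wild type. The value covers the whole gene and does not tell whether transcripts with the insertion are counted in it. It therefore gave no check of the labels, and every direction below rests on the labels. AD1 (GRMZM2G167438), an enzyme gene of wax synthesis, had 16.1 FPKM in fdl1-Mu and 17.5 FPKM in wild type. Over the 15034 genes the median ratio was 0.996, so that members are read against a table with almost no overall shift. Epidermal marker genes were present in both groups: ocl1, an HD-ZIP gene of the outer cell layer, had 29.8 FPKM in fdl1-Mu and 31.3 FPKM in wild type, and 5 of 6 epidermal markers reached 1 FPKM in each group. Their ratios were not all near 1, with 0.618 for ocl4 and 1.16 for ocl3 as the lowest and highest of the 5, and 6 OCL genes at 5 FPKM or more in wild type had a median log2 ratio of -0.40. Of 27 seed storage genes, 2 reached 1 FPKM in each group. The 10 photosynthesis markers summed to 66.0 FPKM in fdl1-Mu and 42.6 FPKM in wild type. The chlorophyll-binding protein gene lhcb7 alone had 35.0 FPKM in fdl1-Mu and 11.7 FPKM in wild type. Without it, a step added after seeing the data, the sums were 30.9 FPKM in both groups. These sums still include pdk1, itself a member, with 7.43 FPKM in fdl1-Mu and 16.2 FPKM in wild type. On the other side, lhcb5 had 6.83 FPKM in fdl1-Mu and 2.40 FPKM in wild type, and ssu1 4.41 and 1.88 FPKM. The equal sums therefore do not mean that lhcb7 alone differed. The part of these markers in the results was not tested. In pooled tips, fewer cells of a type and less RNA per cell cannot be told apart.

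As background, the epidermis of a shoot makes the cuticle, a cutin mesh with waxes in and above it. Fatty acids are elongated in the endoplasmic reticulum, reduced or otherwise modified, and carried through the cell wall with the help of small secreted lipid transfer proteins. MYB factors related to FDL1 are known in Arabidopsis as regulators of wax synthesis genes.

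Most members lay close to the limit of the rule, and a smaller group lay far below it. Of the 103 genes, 53 had a ratio above 0.4, 17 lay above 0.3 and up to 0.4, 11 above 0.2 and up to 0.3, and 7 above 0.1 and up to 0.2. Another 12 lay above 0 and up to 0.1, and 3 were listed at 0 in fdl1-Mu. The median ratio of the members was 0.418. A ratio of 0.25 or less was found for 27 members, 0.18% of the 15034 genes. The members just inside the limit were GRMZM2G003520, GRMZM2G111903 and GRMZM5G898314, with ratios of 0.499, 0.497 and 0.496. Just outside it were GRMZM2G117968, GRMZM6G295344 and GRMZM2G061485, with 0.501, 0.503 and 0.506. The values ran on across the limit without a gap, as 33 members had a ratio over 0.45 and 38 other genes had one between 0.5 and 0.55.

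The limit on the wild-type level was as narrow. The lowest members, GRMZM2G303661, GRMZM2G045732 and GRMZM5G833991, had 5.01, 5.29 and 5.43 FPKM in wild type. GRMZM5G852170, GRMZM2G044383 and GRMZM2G157845, which had ratios under 0.5, were left out with 4.93, 4.832 and 4.830 FPKM in wild type.

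**Figure D1:**
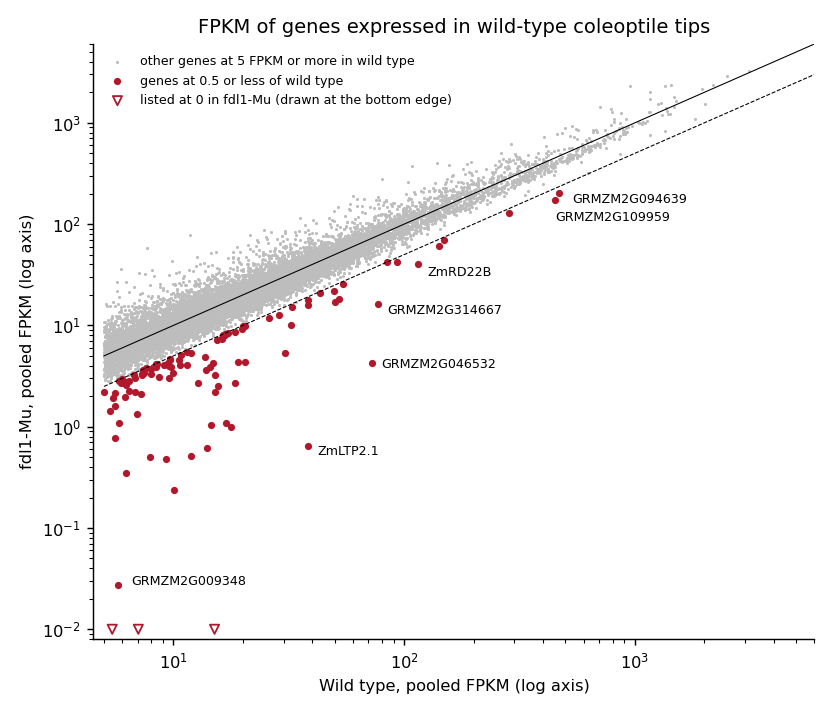
Each point is 1 of the 15034 genes, with its pooled FPKM in fdl1-Mu on the vertical log axis and in wild type on the horizontal log axis. The solid line marks equal levels and the dashed line a ratio of 0.5. Most of the 103 red points lie just under the dashed line, and the 3 open triangles are genes listed at 0 in fdl1-Mu.

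A gap lay above the lowest 15 ratios, the 3 at 0 included, and this cut was placed after the ratios were seen. The 15 ended at 0.072, the next member was at 0.138, and none of the 15034 genes fell between. At lower expression this space was filled, since 9 of the 5606 genes between 1 and 5 FPKM in wild type had a ratio inside it. Within the 15, the step from 0.0048 (GRMZM2G009348) to 0.0171 (ZmLTP2.1) was wider on a fold scale, so the 15 are not a separate class. Among the members, 16 were lower by 7-fold or more or listed at 0, or 15.5% of them. Of 467 genes that were at least doubled and had 5 FPKM or more in fdl1-Mu, 3.06% of the 15278 that could be, 10 were higher by 7-fold or more, or 2.14% of the doubled genes. The 2 shares come from the same contrast as the rule and are given side by side only.

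The 3 members listed at 0 in fdl1-Mu were GRMZM2G074373 (chromosome 3 of B73v3, 98816200 to 98821699), with 15.1 FPKM in wild type, GRMZM2G152777 (chromosome 6, 73020289 to 73022366), with 7.04 FPKM, and GRMZM5G833991 (chromosome 1, 51290811 to 51292486), with 5.43 FPKM. They are the only genes of the 15034 that were listed at 0. A listed 0 need not mean that no transcript was there. The gene with the highest wild-type value in the whole table, glu1 (GRMZM2G016890), was also listed at 0 in fdl1-Mu with 5673 FPKM in wild type, but under a status of too many reads to test, and so was not a member. GRMZM5G833991 also shares its stretch of chromosome 1 with GRMZM2G084821, which had 3.25 FPKM in fdl1-Mu and 4.15 FPKM in wild type. RefSeq places both identifiers in 1 long non-coding RNA gene, so that reads may have been divided between them. No fold is given for the 3 genes.

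Above 0, the lowest ratio belonged to GRMZM2G009348 (chromosome 4, 192838961 to 192840700), with 0.0275 FPKM in fdl1-Mu and 5.72 FPKM in wild type. The lipid transfer protein gene ZmLTP2.1 (GRMZM2G137329, chromosome 1, 2993011 to 2993734) followed, with 0.652 FPKM in fdl1-Mu and 38.1 FPKM in wild type, 58.5-fold lower. AC197705.4_FG001 on chromosome 8 had 0.236 FPKM in fdl1-Mu and 10.1 FPKM in wild type. For these genes the fdl1-Mu value was under 1 FPKM, where a small shift in level moves the ratio widely, and 13 members in all were under 1 FPKM in fdl1-Mu.

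Of the others among the 10 lowest ratios above 0, GRMZM2G046532 (chromosome 7, 24164578 to 24165296) was the most abundant. It had 4.21 FPKM in fdl1-Mu and 72.6 FPKM in wild type, or 17.2-fold less, and so combined a deep drop with a value in fdl1-Mu well above 0. GRMZM2G147399 on chromosome 9 had 0.615 FPKM in fdl1-Mu and 13.9 FPKM in wild type. GRMZM2G119305 on chromosome 10 had 0.485 FPKM in fdl1-Mu and 9.26 FPKM in wild type. GRMZM2G336694 on chromosome 8 had 0.351 FPKM in fdl1-Mu and 6.22 FPKM in wild type, and GRMZM2G125441 on chromosome 9 had 1.08 FPKM in fdl1-Mu and 17.0 FPKM in wild type. None of these 5 genes has a name beyond a locus number or clone name in RefSeq. GRMZM2G025205 and GRMZM2G164064, also among the 10, are neighbours on chromosome 2 and are described with that region.

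**Figure D2:**
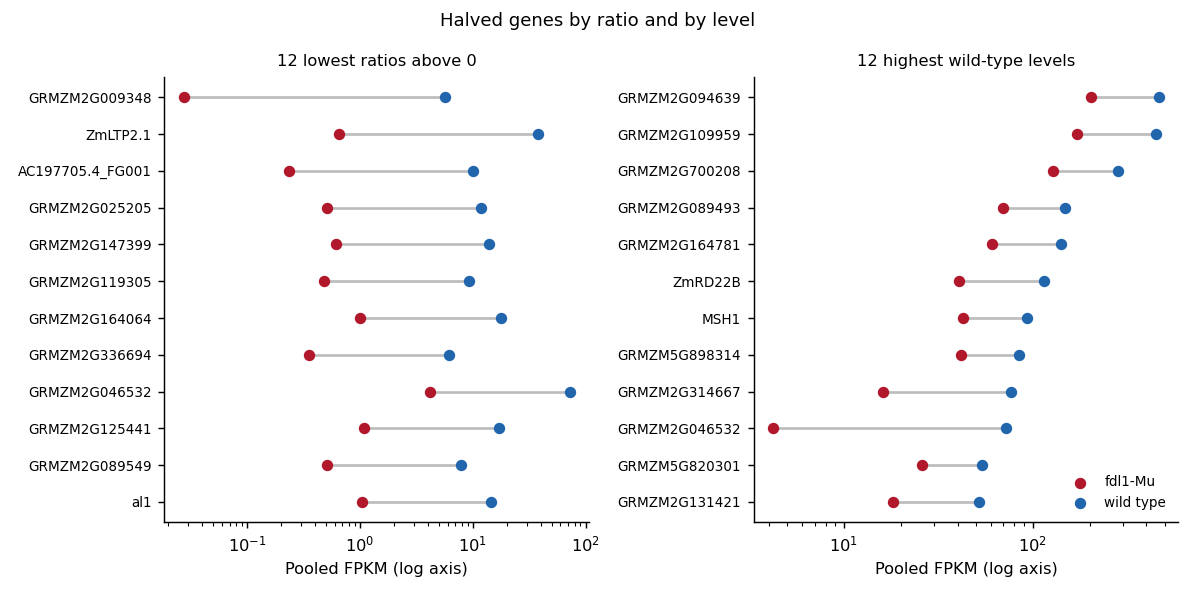
Pooled FPKM of single members on a log axis, with a red point for fdl1-Mu, a blue point for wild type and a grey line between them. The left panel holds the 12 lowest ratios above 0 and the right panel the 12 highest wild-type levels. GRMZM2G046532 appears in both panels.

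The most abundant members had smaller drops. GRMZM2G094639 (chromosome 1, 92473688 to 92474836) had 203 FPKM in fdl1-Mu and 467 FPKM in wild type, and ranked 162nd of the 15034 genes in wild type. GRMZM2G109959 (chromosome 5, 178970658 to 178971460) had 172 FPKM in fdl1-Mu and 452 FPKM in wild type. GRMZM2G700208 (chromosome 10, 33357029 to 33360934) had 128 FPKM in fdl1-Mu and 284 FPKM in wild type. These 3 genes together had 502 FPKM in fdl1-Mu and 1204 FPKM in wild type, and held the greater part of the level of the 10 most abundant members.

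Next in wild-type level came GRMZM2G089493 on chromosome 7, with 69.9 FPKM in fdl1-Mu and 149 FPKM in wild type. GRMZM2G164781 on chromosome 4 had 61.2 FPKM in fdl1-Mu and 141 FPKM in wild type. Further down, GRMZM5G898314 on chromosome 8 had 41.9 FPKM in fdl1-Mu and 84.4 FPKM in wild type. A deeper drop at this level was seen for GRMZM2G314667 on chromosome 3, with 16.1 FPKM in fdl1-Mu and 76.7 FPKM in wild type, 4.76-fold less. The remaining genes of the 10 were ZmRD22B, MSH1 and GRMZM2G046532, and 6 of the 10 had a locus shorter than 2000 bp.

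Most members were far less abundant than these. The median member had 3.89 FPKM in fdl1-Mu and 11.9 FPKM in wild type, while the median of all 15034 genes was 18.3 FPKM in fdl1-Mu and 17.9 FPKM in wild type. All members together summed to 1253 FPKM in fdl1-Mu, or 0.183% of the table, and to 3312 FPKM in wild type, or 0.495%. The 10 most abundant members made up 62.2% of the members' sum in fdl1-Mu and 58.5% in wild type. In fdl1-Mu, 35 members still had 5 FPKM or more.

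A name other than a locus number, clone or marker was found for 19 of the 103 members, from the paper or from the symbols and synonyms of the RefSeq annotation. For al1 and RCP1 this was a symbol only, without a function. RefSeq held an entry for 77 members, or 74.8%, close to the 76.0% of all 15034 genes, but for 59 of these only a locus number, a clone or a marker name. The other 25 members had neither an entry nor a name. The 84 members with no known name had a median ratio of 0.392 and a median span of 1936 bp, and the 19 named ones had medians of 0.430 and 2420 bp. Of the matched members, 74 were protein-coding genes, 2 transcribed pseudogenes (GRMZM2G045732 and GRMZM2G050407) and 1 a long non-coding RNA. Types other than a protein-coding gene made up 3.90% of the matched members and 1.22% of the matched genes that could be members.

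Of the 19, 7 are cuticle genes named in the paper, with ratios between 0.017 and 0.458. For wax synthesis these were ZmKCS24 (GRMZM2G003138), of the 3-ketoacyl-CoA synthases that elongate fatty acids, ZmFAR1-2 (GRMZM2G480516), named after the fatty acyl-CoA reductases that make alcohols, and MSH1 (GRMZM2G036217). MSH1 was the most abundant of the 7, with 42.7 FPKM in fdl1-Mu and 93.2 FPKM in wild type. ZmFAR1-2 had 4.55 FPKM in fdl1-Mu and 10.6 FPKM in wild type, and its locus on chromosome 7 (62990693 to 62997102) was the longest of the 7. ZmKCS24 had a deeper drop than either, with 0.775 FPKM in fdl1-Mu and 5.60 FPKM in wild type. In transport, ZmLTPG9 (GRMZM2G168833) had 16.1 FPKM in fdl1-Mu and 38.4 FPKM in wild type, a wild-type level close to that of ZmLTP2.1 with a far smaller drop. None of 4 further lipid transfer protein genes at 5 FPKM or more in wild type that RefSeq names was a member, and their median log2 ratio was -0.40. ZmBDG1 (GRMZM2G030636), whose Arabidopsis relative BODYGUARD is needed for a normal cutin layer, had 2.72 FPKM in fdl1-Mu and 5.93 FPKM in wild type. The ERF factor gene EREB60 (GRMZM2G131266), related to WRINKLED3 of Arabidopsis, had 1.59 FPKM in fdl1-Mu and 5.60 FPKM in wild type.

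Both RD22-type genes among the members carry the BURP domain, a plant domain, and RD22 of Arabidopsis is known as a gene that responds to drying. RefSeq gives 4 tested BURP genes at 5 FPKM or more, and they did not move together. ZmRD22B (BURP4, GRMZM5G800586, chromosome 3, 200503799 to 200505886) had 40.8 FPKM in fdl1-Mu and 115 FPKM in wild type. ZmRD22A (BURP10, GRMZM2G446170, chromosome 8, 175285916 to 175288181) had 17.8 FPKM in fdl1-Mu and 38.3 FPKM in wild type. BURP3 (GRMZM2G106980) was on the other side, with 139 FPKM in fdl1-Mu and 57.4 FPKM in wild type, and BURP5 (GRMZM2G147756) had 19.9 FPKM in fdl1-Mu and 18.1 FPKM in wild type.

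The other 10 named members are not among the cuticle or RD22 genes. All 10 had modest wild-type levels, between 7.31 and 16.2 FPKM, and the median of their ratios was 0.442. Of these, mn1 and pdk1 encode enzymes of carbon metabolism. The mn1 gene (GRMZM2G119689, chromosome 2, 57435843 to 57439124) encodes the cell wall invertase INCW2, which splits sucrose outside the cell and is known for its role in filling the kernel. It had 4.03 FPKM in fdl1-Mu and 9.09 FPKM in wild type, while the other cell wall invertase gene found, incw1 (GRMZM2G139300), had 64.6 FPKM in fdl1-Mu and 52.3 FPKM in wild type.

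The pdk1 gene (GRMZM2G306345, chromosome 6, 146179404 to 146189965) encodes pyruvate orthophosphate dikinase, which regenerates the carbon dioxide acceptor of the C4 cycle in leaves. It had 7.43 FPKM in fdl1-Mu and 16.2 FPKM in wild type. Its RefSeq synonyms include both C4ppdkZm1 and cyppdkZm1, and the 1 value for the gene does not tell whether transcripts of the C4 form were counted. Other genes of leaf photosynthesis were low or on the other side. The C4 malic enzyme gene me3 (GRMZM2G085019) had 4.32 FPKM in fdl1-Mu and 4.83 FPKM in wild type. The Rubisco small subunit gene ssu1 (GRMZM2G098520) had 4.41 FPKM in fdl1-Mu and 1.88 FPKM in wild type. The photosynthesis markers thus did not move one way.

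Of the lipoxygenases, enzymes that oxidize polyunsaturated fatty acids at the start of jasmonate and related oxylipin synthesis, only lox4 (GRMZM2G109056) of the 9 at 5 FPKM or more in wild type was a member. It had 3.31 FPKM in fdl1-Mu and 7.99 FPKM in wild type, at a locus of 16428 bp on chromosome 1 (264275083 to 264291510). The other 8 had ratios from 1.24 to 1.90, among them lox5 (GRMZM2G102760), with 43.8 FPKM in fdl1-Mu and 24.2 FPKM in wild type. In the lipoxygenase family lox4 was thus the 1 gene with a lower value in fdl1-Mu, and it was also the least abundant of these 9 in wild type.

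Named members also included rip2 (GRMZM2G119705), of the ribosome-inactivating proteins, and grp3 (GRMZM2G154954), of the glycine-rich proteins. Ribosome-inactivating proteins remove an adenine base from ribosomal RNA. The rip2 gene had 5.43 FPKM in fdl1-Mu and 11.5 FPKM in wild type, whereas RIP1 (GRMZM2G052546) had 24.2 FPKM in fdl1-Mu and 19.3 FPKM in wild type. Glycine-rich proteins are mostly either structural proteins of the wall or RNA-binding proteins. The grp3 gene (chromosome 5, 31464367 to 31465552) had 2.21 FPKM in fdl1-Mu and 15.1 FPKM in wild type, 6.84-fold less. Of the other glycine-rich genes found, GRP5 (GRMZM2G146308) was also lower, at a level too low for the rule. It had 0.842 FPKM in fdl1-Mu and 1.72 FPKM in wild type, a ratio of 0.490. By contrast, grp1 (GRMZM2G080603) was among the most abundant transcripts of both groups, with 3218 FPKM in fdl1-Mu and 3135 FPKM in wild type.

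RCP1 (GRMZM2G097316, chromosome 3, 145514689 to 145516008) had 3.22 FPKM in fdl1-Mu and 15.1 FPKM in wild type, 4.68-fold less. RCP2 (GRMZM2G146502) was also lower, with 0.812 FPKM in fdl1-Mu and 1.35 FPKM in wild type, a ratio of 0.603 at a low level. A gene with the name ankyrin-1 (GRMZM2G155314) had 3.23 FPKM in fdl1-Mu and 7.31 FPKM in wild type. Ankyrin repeats are short motifs through which proteins bind each other. The remaining one, al1 (GRMZM2G118759), belongs to the group on chromosome 2 described further on.

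For transcription factors, EREB60, EREB179 and bHLH23 were the only members that RefSeq names as factors of the lists searched. EREB179 (GRMZM2G129674), of the ERF family of DNA-binding proteins, had 3.41 FPKM in fdl1-Mu and 7.46 FPKM in wild type. The basic helix-loop-helix factor gene bHLH23 (GRMZM2G178182) had 7.24 FPKM in fdl1-Mu and 15.5 FPKM in wild type. Of the ERF genes at 5 FPKM or more in wild type that RefSeq names, 2 of 10 were members, with a median log2 ratio of -0.03 over the 10. Of the bHLH genes 1 of 22 was a member (median 0.10), and of the MYB genes 0 of 20 (median 0.11), beside a median of -0.01 over all 15034 genes. The lists of 5 WRKY genes and 6 cyclin genes at that level held 0 members. Beside the share of 0.685% over all 15034 genes, lists of this size are too short for a count of 0 to be a result about these families, and the 2 ERF genes and 1 bHLH gene are too few to read a share from. These lists hold only genes with a family name among the RefSeq synonyms.

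The loci of the members were short. The locus span is the stretch from the first to the last base of a gene in the table, introns included. It ran from 161 to 18870 bp in the members with a median of 2078 bp, and the median of the 15034 genes was 4304 bp. Spans under 1000 bp made up 23.3% of the members and 4.33% of all 15034 genes. Under 2000 bp, 51 of 2317 genes were members, or 2.20%, and at 2000 bp or more 52 of 12717 genes, or 0.409%. Span was not part of the rule.

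The share of members went down with each step in span. It was 5.17% of the 116 genes under 500 bp, 3.36% between 500 and 1000 bp, 1.62% between 1000 and 2000 bp, 0.685% between 2000 and 4000 bp, 0.269% between 4000 and 8000 bp, and 0.235% at 8000 bp or more. The first of these rests on 6 members, among them GRMZM5G844017, GRMZM5G818194 and GRMZM5G890472 with spans of 161, 195 and 231 bp, chosen for mention as the shortest after their values were seen.

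Short loci differed from long ones in the spread of all ratios as well. The middle 50% of the log2 ratios ran from -0.26 to 0.28 under 500 bp and from -0.19 to 0.19 between 4000 and 8000 bp. Genes with a ratio of 2 or more were also shorter than most. They were 4.75% of the genes under 2000 bp and 0.975% of those at 2000 bp or more, against 1.56% of all 15034 genes. Their share was greatest between 1000 and 2000 bp, at 5.34%, and was 1.72% under 500 bp, where that of the members was greatest. The part of the wider spread of short loci in the result was not tested.

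The difference in span was seen at every level of expression. Between 5 and 10 FPKM in wild type, 2.32% of the genes under 2000 bp were members, against 0.901% of those at 2000 bp or more. Between 10 and 20 FPKM the shares were 2.75% and 0.396%, and between 20 and 50 FPKM 1.65% and 0.131%. At 50 to 100 FPKM they were 2.19% and 0.239%, and at 100 FPKM or more 1.56% and 0.230%, with 4 and 3 members and 4 and 2 members behind them.

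**Figure D3:**
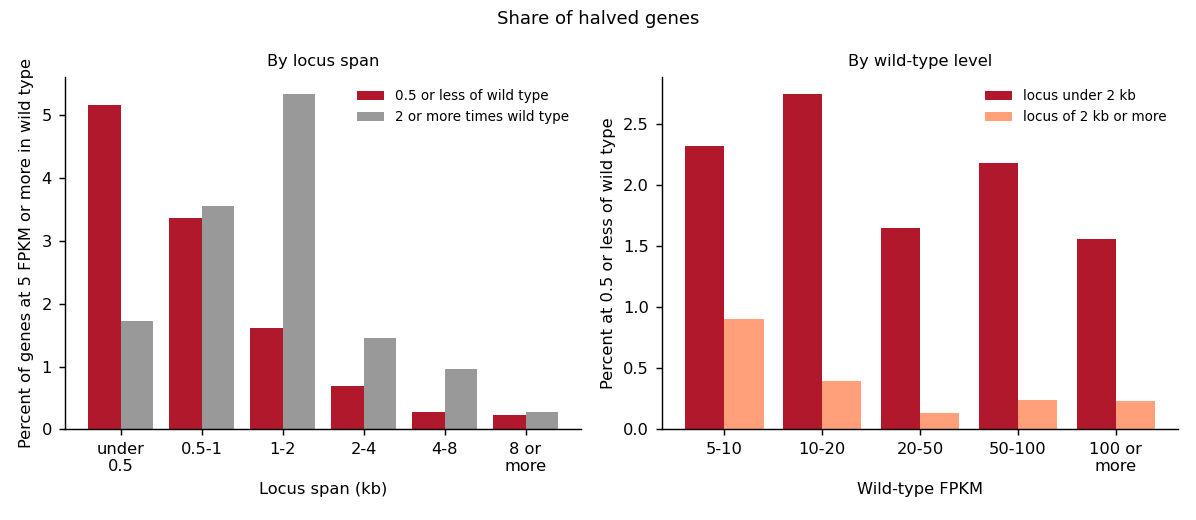
Left, percent of the genes at 5 FPKM or more in wild type that had a ratio of 0.5 or less (red) or of 2 or more (grey), by locus span in kb. Right, percent with a ratio of 0.5 or less by wild-type FPKM, for loci under 2 kb (red) and of 2 kb or more (orange). The red share goes down from 5.17% to 0.235% over the span bands, and in each level band the short loci stand above the long ones.

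Long members were rare but present. In 7 members the locus was 10 kb or longer, with lox4 and pdk1 among them. These were also all the members at 8000 bp or more, 0.235% of the 2981 genes of that span. The longest, GRMZM2G033566 on chromosome 9 (57135264 to 57154133), had 3.35 FPKM in fdl1-Mu and 9.96 FPKM in wild type, and was chosen for mention after its values were seen. The 15 members with the lowest ratios, a group set after the ratios were seen, had a median span of 1404 bp and the other 88 one of 2246 bp. Only 3 members overlapped another locus, 2.91% beside 6.27% of the 15034 genes. One was GRMZM5G820301, with 25.8 FPKM in fdl1-Mu and 54.0 FPKM in wild type, which overlaps the more abundant GRMZM2G016447, with 119 FPKM in fdl1-Mu and 145 FPKM in wild type. The others were GRMZM5G833991 and GRMZM6G381253. GRMZM2G003520 does not overlap GRMZM2G028136, but RefSeq gives both as 1 gene, and GRMZM2G028136 had 13.1 FPKM in fdl1-Mu and 13.6 FPKM in wild type.

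Members were found on all 10 chromosomes, with 43 of the 103 on chromosomes 1 and 2. Chromosome 2 held 21 members, or 1.22% of its 1720 genes at 5 FPKM or more in wild type, and chromosome 1 held 22 of 2412, or 0.912%. The 21 include 4 members of a close run and 4 of a looser group, both described further on. The share of chromosome 2 without them was not computed. Chromosome 7, which carries FDL1, had 11 of 1161, or 0.947%. The others ranged from 0.311% on chromosome 10, with 3 members, to 0.639% on chromosome 8. Along the chromosomes, 30.1% of the members and 31.0% of the 15034 genes lay in the middle 50% of the length, measured up to the last locus of each chromosome in the table. The outer 10% at either end held 29.1% of the members, 35.3% of the 15034 genes and 33.6% of the doubled genes. On chromosome 2, doubled genes were also at their highest share, 4.27%.

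**Figure D4:**
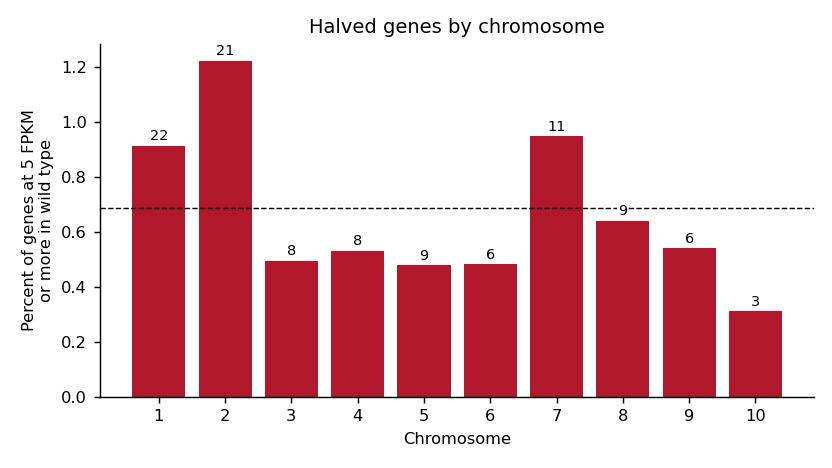
Bars give the percent of the genes at 5 FPKM or more in wild type that had a ratio of 0.5 or less, for each chromosome, with the number of such genes above each bar. The dashed line is the share over all chromosomes, 0.685%. Chromosomes 1, 2 and 7 stand above the line and chromosome 10 is lowest, with 3 genes.

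The surroundings of FDL1 held too few genes to set a share of members against the 0.685% of the whole table. Within 1 Mb of it 0 of the 36 genes that could have been members were, within 5 Mb 1 of 165, and within 10 Mb 3 of 308. The nearest was rip2, 4.80 Mb away. Next were GRMZM2G181607 at 6.14 Mb, with 4.05 FPKM in fdl1-Mu and 10.6 FPKM in wild type, and the abundant GRMZM2G089493 at 9.48 Mb. The other 10 members on chromosome 7 thus lay more than 5 Mb from FDL1.

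The longest run of neighbouring members was on chromosome 2, between 130329123 and 130909743 of B73v3, a stretch of 581 kb. It held 4 members that followed each other in the order of the 15034 genes. GRMZM2G143397 had 2.67 FPKM in fdl1-Mu and 18.5 FPKM in wild type, and GRMZM2G025205 had 0.509 FPKM in fdl1-Mu and 11.9 FPKM in wild type. GRMZM2G164064 had 0.997 FPKM in fdl1-Mu and 17.7 FPKM in wild type, and al1 had 1.05 FPKM in fdl1-Mu and 14.6 FPKM in wild type. All 4 had similar wild-type levels and short loci, between 582 and 862 bp. RefSeq has entries for GRMZM2G164064 and al1 only.

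Another gene of this stretch went the same way below the limit of the rule. GRMZM2G020183, of 760 bp, had 0.0319 FPKM in fdl1-Mu and 1.94 FPKM in wild type. Of the 11 genes listed in the stretch, these 5 were the only ones that reached 1 FPKM in either group. All but GRMZM2G020183 are members, lower by the rule, and the stretch was drawn between the outermost of them. A member next to it would have lengthened the stretch, so only GRMZM2G020183 adds to the choice. The nearest expressed neighbours were not lower. GRMZM2G143403 on one side had 53.3 FPKM in fdl1-Mu and 50.7 FPKM in wild type, and GRMZM2G118800 on the other had 14.0 FPKM in fdl1-Mu and 7.17 FPKM in wild type. Over the 6 other expressed genes within 500 kb of the stretch, the ratios ran from 0.806 to 1.96. The table does not tell whether reads could be divided between the 5 genes.

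Smaller groups lay on chromosomes 9, 8 and 1. On chromosome 9, GRMZM2G147399 (20677133 to 20678372) and GRMZM2G131421 (20705211 to 20706472) were neighbours of nearly equal span, 1240 and 1262 bp, but differed in depth of the drop. GRMZM2G131421 had 18.1 FPKM in fdl1-Mu and 51.9 FPKM in wild type, a ratio of 0.348 beside 0.044 for its neighbour. The 19 other expressed genes within 500 kb had ratios from 0.621 to 1.54.

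On chromosome 8, GRMZM2G170975 (162298840 to 162300167) had 4.25 FPKM in fdl1-Mu and 9.52 FPKM in wild type, and GRMZM2G170969 (162305491 to 162306120) had 3.01 FPKM in fdl1-Mu and 6.78 FPKM in wild type. Their ratios were almost equal, 0.447 and 0.443. Between them, GRMZM2G471051 had 0.386 FPKM in fdl1-Mu and 1.14 FPKM in wild type, a ratio of 0.339 at a level too low for the rule. GRMZM5G898314 lay further along the same region.

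On chromosome 1, GRMZM2G118173 (235817108 to 235818065) had 2.52 FPKM in fdl1-Mu and 15.6 FPKM in wild type, and GRMZM2G029518 (235922400 to 235923520) had 5.33 FPKM in fdl1-Mu and 30.4 FPKM in wild type. Their ratios were 0.161 and 0.175. They were separated by GRMZM2G149446, a gene of similar span that had 6.49 FPKM in fdl1-Mu and 8.06 FPKM in wild type. Unlike the stretch on chromosome 2, this one thus held an expressed gene that stayed above the limit. Among 14 other expressed genes within 500 kb, 1 had a ratio under 0.5, GRMZM2G389570, with 0.535 FPKM in fdl1-Mu and 1.48 FPKM in wild type.

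**Figure D5:**
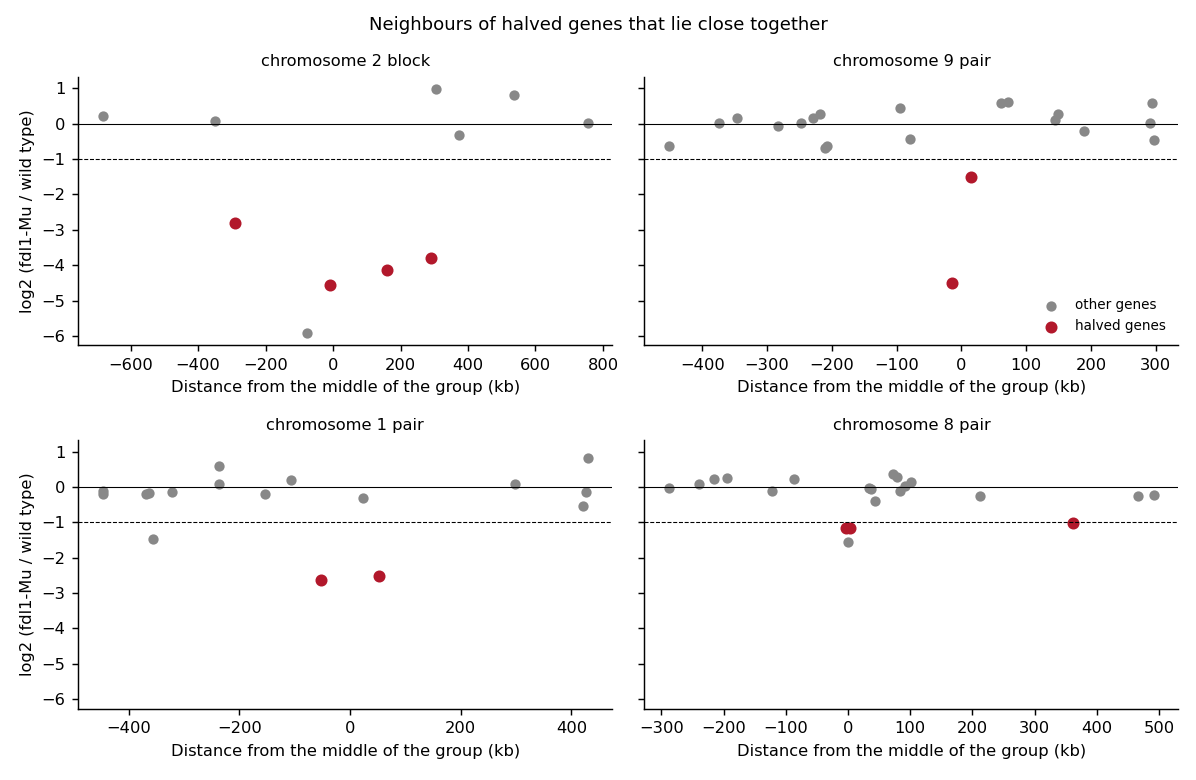
Log2 ratio of fdl1-Mu to wild type for genes at 1 FPKM or more in either group, by distance in kb from the middle of 4 groups of members, up to 500 kb beyond each. Members are red and other genes grey, and the dashed line marks a ratio of 0.5. The grey point among the red ones on chromosome 2 is GRMZM2G020183, and most other neighbours lie near 0.

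A looser group was seen further along chromosome 2, where 4 members were spread over 1167 kb from 205136417 to 206303548. GRMZM2G163297 had 4.38 FPKM in fdl1-Mu and 20.5 FPKM in wild type, and GRMZM2G073197 had 4.26 FPKM in fdl1-Mu and 14.8 FPKM in wild type. GRMZM2G045732 had 1.44 FPKM in fdl1-Mu and 5.29 FPKM in wild type, and GRMZM2G067520 had 3.76 FPKM in fdl1-Mu and 7.59 FPKM in wild type. These loci were longer than those of the first group, from 3666 to 7763 bp, and 12 other expressed genes lay among them with ratios from 0.682 to 1.73.

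Another member lay within 100 kb of 6 of the 103 members, or 5.83%. These were the pairs on chromosomes 9 and 8, and GRMZM2G163297 with GRMZM2G045732 of the looser group. In the first stretch on chromosome 2 and the pair on chromosome 1, members were more than 100 kb apart. Of the 467 doubled genes, 46 had another doubled gene within 100 kb, or 9.85%. The doubled set is larger, which by number alone brings its genes closer together, so the shares are given side by side only. There were 3 runs of neighbouring members, with 8 genes in all.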

How the data were processed

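According to the paper's methods and the labels, stranded mRNA libraries were mapped to B73v3, both groups being of the W22 background. The submitters' processing notes name Trimmomatic, TopHat2 2.1.1 and Cuffdiff. Other versions, the parameters and the annotation are not given in the sources used here. The deposited values are the authors' pooled FPKM per gene and group. The deposited table also holds the authors' own comparison (log2 ratio, test statistic, p-value, q-value and call), which was not used.

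Ratios were computed here from FPKM without a pseudocount, with starts raised by 1 to count from 1. With 1 value per group no test was made, and shares and medians stand beside those of all genes with status OK and 5 FPKM or more in wild type. Members and lists were chosen with earlier results of these data known. Named genes are the 10 lowest ratios above 0, those at 0, the 10 highest wild-type levels, all with a known name, those at the limits of the rule, neighbouring members and those within 5 Mb of FDL1. Families of named members were added after their values were seen. Names came from the paper and from RefSeq synonyms of Zm-B73-REFERENCE-NAM-5.0, whose coordinates were not used. Since RefSeq synonyms hold few functions, 15 of 24 planned lists matched no gene. No sequence was used, so the promoter search was not run. The selection code was run on simulated data with 200 planted genes. This checks the code only, and not how reliable the choice of a member is. Python 3.11.15, numpy 2.4.6, pandas 2.3.3 and matplotlib 3.10.9 were used.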

Additional observations from a re-analysis of the deposited data

How the results depend on the processing

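The number of genes followed the limits of the rule. In place of 103, it was 287 with a minimum of 1 FPKM in wild type, 58 with 10 FPKM and 26 with 20 FPKM. It was 37 with a ratio of at most 1/3 and 27 with at most 0.25 (0.18% of the genes tested). It stayed within 1.5 times the reported number with a pseudocount of 1 (75), with ratios centred on the median (102), with any status (105), without overlapping loci (100) and, added after seeing the data, without the 4 neighbours on chromosome 2 (99). The median span stayed between 1658 and 2113 bp in its 3 alternatives, of which the limit to 100 FPKM or less in wild type was added after seeing the data. With a pseudocount of 1, 2 in place of 3 members fell in the planned gene lists. Members with another member nearby numbered 4 within 50 kb, 11 within 200 kb and, added after seeing the data, 22 within 1000 kb, against 6 within 100 kb. At 50, 200 and 1000 kb these were 3.88%, 10.7% and 21.4% of the members. In the larger set of doubled genes the shares were 5.35%, 15.4% and 43.7%. The counts on chromosomes 1 and 2 were 21 and 21 without overlapping loci. No member on chromosome 2 overlapped another locus, so its count could not change. The FPKM values carry no read numbers, so that the error of a low value is unknown, and 13 members were under 1 FPKM in fdl1-Mu. No paired analysis was possible because the table holds 1 pooled value per group. For the same reason no replicate could be left out. The promoter alternatives were not run.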

Other observations

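Of genes outside the 3 conditions, 2 with 5 FPKM or more in wild type were listed at 0 in fdl1-Mu under another status. These were glu1 (GRMZM2G016890), with 5673 FPKM in wild type and too many reads to test, and zma-MIR166d, a microRNA gene with 7.37 FPKM in wild type that was not tested. Of the 15 members with the lowest ratios, 2 had a known name, ZmLTP2.1 and al1.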
